A study of Mus musculus with 4 samples.

Results

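Atf3 and the genes of the integrated stress response were examined in infarcted mouse hearts that carried or lacked KDM5B, to ask whether Atf3 was higher in the knockout alone or together with the genes of the ATF4 pathway. The 10 genes were Atf3, Atf4, Atf5, Ddit3, Trib3, Ppp1r15a, Chac1, Asns, Sesn2 and Gdf15, taken from the non-control probes that carry these names in the array files. They are 10 of 15062 genes with a RefSeq symbol and a tested probe, and were read by 12 probes of 41174, with a pair of probes each for Trib3 and Sesn2 and 1 probe for every other gene. All 12 were well above background on all 4 arrays.

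RNA came from the left ventricle of mice labelled male, 8-10 weeks old at surgery, 7 days after the left anterior descending artery was permanently tied off, an operation that both groups underwent and that causes myocardial infarction (MI). The WT group had 2 arrays, called WT 2 and WT 3, and the KDM5B-KO group had 2 arrays, called KO 2 and KO 3, after the numbers in the sample titles. Per the methods, the KO mice were made with CRISPR/Cas9 on a C57BL/6 background and carry a deletion over the JmjC domain that shifts the reading frame of KDM5B, a demethylase of lysine 4 of histone H3, and that is not restricted to a cell type. No unoperated heart was among these samples, so every value describes the infarcted ventricle.

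The integrated stress response begins when kinases phosphorylate the translation factor eIF2 under amino acid shortage, unfolded proteins in the endoplasmic reticulum, heme shortage or viral RNA. General translation then falls while the mRNAs of ATF4, ATF5 and CHOP are translated better, and ATF4 with its partners switches on Atf3, Ddit3, Trib3, Chac1, Asns and Sesn2. Atf3 has other routes of induction as well, among them mitogen, cytokine and p53 signalling, and it is an early response gene of the injured heart. Because ATF4 is largely controlled at translation, its mRNA can stay level while its targets respond, which makes the targets the more informative readout on an RNA array.

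The promoter of Atf3 is shown because it holds both kinds of element through which ATF4 and its relatives bind DNA. The 250 bases before its RefSeq start (GRCm38.p6, chr1:191183334-191183583, minus strand, printed in the direction of transcription) are given with matches to the C/EBP-ATF element, searched as TGATGNAA on either strand, and to the cyclic AMP element, searched as TGACGTNA on either strand, in capitals.
Atf3: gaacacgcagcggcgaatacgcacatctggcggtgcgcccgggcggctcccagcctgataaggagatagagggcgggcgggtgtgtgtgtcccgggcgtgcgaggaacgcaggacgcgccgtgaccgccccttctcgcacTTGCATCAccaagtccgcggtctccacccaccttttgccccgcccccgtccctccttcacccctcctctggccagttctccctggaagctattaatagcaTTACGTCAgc

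The C/EBP-ATF match lies 110 bases before the start and the cyclic AMP element match lies 10 bases before it. Of 32851 RefSeq promoters of the same length, running from 250 bases before to 50 after the start, 3.97% held the first motif and 2.93% the second. The first was found for 4 of the 10 genes, Atf3, Trib3, Chac1 and Asns, and the second for 2, Atf3 and Ppp1r15a. The matches of the other 4 genes are set out below, each in 30 bases with the match in capitals, so that they can be held against the values of the same genes.
Trib3 (chr2:152344028-152344057, minus strand): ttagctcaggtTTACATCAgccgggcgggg
Chac1 (chr2:119351038-119351067, plus strand): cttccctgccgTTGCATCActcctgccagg
Asns (chr6:7693214-7693243, minus strand): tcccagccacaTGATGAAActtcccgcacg
Ppp1r15a (chr7:45526262-45526291, minus strand): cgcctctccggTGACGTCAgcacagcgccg

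A shorter motif bound by AP-1, searched as TGANTCA, was in the Ddit3 promoter only among the 10 genes and in 7.81% of all promoters. These matches describe letters in a window and say nothing of occupancy in these hearts.

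Before the results, the arrays were checked against their labels. Each KO array read lower than both WT arrays on the 2 probes of Kdm5b. The brighter one (mm9 chromosome 1, 136485365 to 136485424) read -0.87 and -1.81 on WT 2 and WT 3, and -2.40 and -2.26 on KO 2 and KO 3, on the log2 scale relative to the 75th percentile of each array that is used throughout. The dimmer one (136528957 to 136529016) read -2.43 and -3.40 on WT 2 and WT 3, and -4.35 and -3.86 on KO 2 and KO 3. The mean signals were 1.99-fold and 2.28-fold lower in KO, both with a limma adjusted p of 0.9999. Where these probes lie relative to the deleted bases was not determined, so this check of the labels is partial. Transcripts of the sex chromosomes divided the arrays by number although all are labelled male. The unscaled log2 signal of Xist was 14.13 (WT 2) and 13.24 (KO 2) at number 2 but 1.92 (WT 3) and 2.01 (KO 3) at number 3, and that of the Y-linked gene Ddx3y was 2.12 and 1.63 at number 2 but 11.88 and 11.44 at number 3. The split is balanced over genotype, and differences are therefore given within number 2 and within number 3, where 1 KO array stands against 1 WT array, beside the mean. All arrays were on 1 slide with both WT arrays at the first positions and both KO arrays at the last, so position and genotype cannot be told apart. The markers of heart muscle were present on all arrays, with a mean over 15 genes of 6.54 and 5.40 on WT 2 and WT 3, and 7.59 and 4.62 on KO 2 and KO 3.

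Atf3, a stress-induced transcription factor of the ATF and CREB family, was higher on both KO arrays than on both WT arrays. Its signal was 0.37 and 0.57 on WT 2 and WT 3, and 2.34 and 1.26 on KO 2 and KO 3. The WT arrays lay close together while the KO arrays lay apart, with KO 2 the highest of all. The WT mean was 0.47 ± 0.14 (SD, n = 2) and the KO mean 1.80 ± 0.77 (SD, n = 2), a difference of 1.33 log2 units (standard error 0.45, 95% interval 0.05 to 2.62), or 2.52-fold. Within the numbers, the KO array exceeded the WT array by 1.98 at number 2 and by 0.69 at number 3.

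In the limma fit over all 28305 tested probes, Atf3 had an unadjusted p of 0.0454 and an adjusted p of 0.9999, so it did not pass the threshold of an adjusted p under 0.05 with a fold change over 2. No probe did (0 of 28305, 0%), no adjusted p was below 0.9999, and 410 probes (1.45%) had an unadjusted p under 0.05, of which Atf3 was the only one of the 12 probes of these genes. The difference of Atf3 was the 113th highest of all probes, within the top 0.399%. An exact permutation test of 2 arrays against 2 cannot give a two-sided p under 0.333. The study followed Atf3 on from these samples, so its direction here is not independent evidence. No label ties the arrays to separate experiments beyond the sample titles, and the p-values measure the spread between these samples.

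The Atf3 probe lies on chromosome 1 of mm9 at 192994547 to 192994606, on the minus strand, and matches its gene by name in the files. The first 30 of its 60 bases are given to show which stretch of the transcript the Atf3 values stand for.
Atf3 probe, bases 1 to 30: cacagcagctttgtccttggctacaaactg

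**Figure D1:**
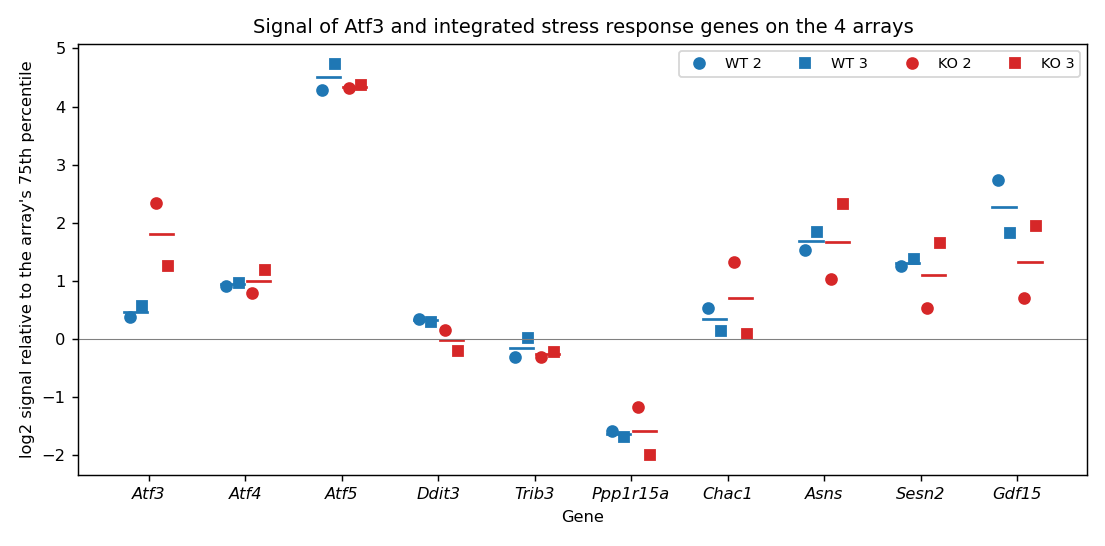
Signal of the 10 genes on each array, as log2 relative to each array's 75th percentile (vertical axis), by gene (horizontal axis). Blue is WT, red is KO, circles are number 2, squares are number 3 and bars are means of 2 arrays. The KO points lie above the WT points for Atf3 and below them for Ddit3, and the groups overlap for the other 8 genes. Heights of different genes are not comparable, since each probe has its own response.

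The other transcription factors of the pathway did not share this pattern. Atf4, the central activator, read 0.92 and 0.97 on WT 2 and WT 3, and 0.80 and 1.19 on KO 2 and KO 3. The KO arrays lay on either side of the WT arrays, and the mean difference was 0.05 (standard error 0.25, 95% interval -0.66 to 0.75), with -0.12 at number 2 and 0.22 at number 3. The Atf4 probe lies on chromosome 15 at 80087079 to 80087138, on the plus strand.

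Atf5, a relative of ATF4 that is tied to mitochondrial stress, read 4.28 and 4.74 on WT 2 and WT 3, and 4.32 and 4.37 on KO 2 and KO 3. Both KO values lay between the WT values. The difference was -0.16 (standard error 0.26, 95% interval -0.92 to 0.59). Its probe lies on chromosome 7 at 52067718 to 52067777, on the minus strand.

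Ddit3, which encodes the pro-apoptotic factor CHOP, was the single gene of the set with both KO arrays below both WT arrays. It read 0.34 and 0.30 on WT 2 and WT 3, and 0.15 and -0.20 on KO 2 and KO 3. The difference was -0.35 (standard error 0.24, 95% interval -1.03 to 0.33) and within the numbers it was -0.20 and -0.50, with an adjusted p of 0.9999. Atf3 and Ddit3 thus differed in opposite directions within both numbers. The Ddit3 probe covers 304 bases of mm9 (chromosome 10, 126732518 to 126732821) with 60 bases of sequence, so its genomic match is interrupted.

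The feedback inhibitors of the response were next. Trib3, a pseudokinase that binds ATF4 and restrains it, was read by a bright and a dim probe. The bright one gave -0.31 and 0.01 on WT 2 and WT 3, and -0.31 and -0.22 on KO 2 and KO 3, a difference of -0.12 (standard error 0.24). The dim one gave -3.93, -3.59, -3.78 and -3.38 in the same order, a difference of 0.18 (standard error 0.28). The signs of the probes differ, both differences are smaller than their standard errors, and the groups overlapped on each. They lie on chromosome 2 at 152163355 to 152163414 and at 152164025 to 152164084, on the minus strand.

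Ppp1r15a, also called GADD34 (chromosome 7, 52779582 to 52779641, minus strand), recruits the phosphatase that resets eIF2. It read -1.59 and -1.69 on WT 2 and WT 3, and -1.17 and -2.00 on KO 2 and KO 3. The KO arrays were the highest and the lowest of the 4, and the mean difference was 0.06 (standard error 0.36, 95% interval -0.98 to 1.10), made of 0.42 at number 2 and -0.31 at number 3. Its promoter shares the cyclic AMP element match with that of Atf3, as printed above.

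Chac1, a glutathione-degrading enzyme and one of the most responsive ATF4 targets, had the next largest positive difference after Atf3. It read 0.54 and 0.14 on WT 2 and WT 3, and 1.33 and 0.09 on KO 2 and KO 3. KO 2 was the highest array, as for Atf3, but KO 3 was the lowest. The difference was 0.37 (standard error 0.52, 95% interval -1.10 to 1.84), with 0.78 at number 2 and -0.05 at number 3. Its probe lies on chromosome 2 at 119179990 to 119180049, on the plus strand.

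Asns, which makes asparagine and is the classical amino acid response gene, read 1.53 and 1.84 on WT 2 and WT 3, and 1.03 and 2.32 on KO 2 and KO 3. KO 2 was the lowest and KO 3 the highest. The differences of -0.50 at number 2 and 0.49 at number 3 left a mean of -0.01 (standard error 0.53, 95% interval -1.50 to 1.49). The Asns probe lies on chromosome 6 at 7625194 to 7625253, on the minus strand.

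Sesn2, a stress-induced inhibitor of mTORC1 signalling, behaved alike on both of its probes. The brighter read 1.25 and 1.38 on WT 2 and WT 3, and 0.53 and 1.66 on KO 2 and KO 3, a difference of -0.22 (standard error 0.46). The other read 0.77, 0.86, 0.61 and 0.99 in that order, a difference of -0.01 (standard error 0.25). On both, KO 2 was the lowest array and KO 3 the highest. The Sesn2 probes lie on the minus strand of chromosome 4, the brighter at 132047974 to 132048033 and the other at 132048858 to 132048917.

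Gdf15, a secreted stress cytokine that rises after cardiac injury, had the largest negative difference of the set. It read 2.73 and 1.82 on WT 2 and WT 3, and 0.70 and 1.95 on KO 2 and KO 3. KO 2 stood below the other arrays, while KO 3 lay within the WT values. The difference was -0.95 (standard error 0.60, 95% interval -2.66 to 0.76), made of -2.03 at number 2 and 0.13 at number 3, so its size rests on KO 2. Without KO 2 it was -0.33. The Gdf15 probe lies on chromosome 8 at 73153471 to 73153530, on the minus strand.

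**Figure D2:**
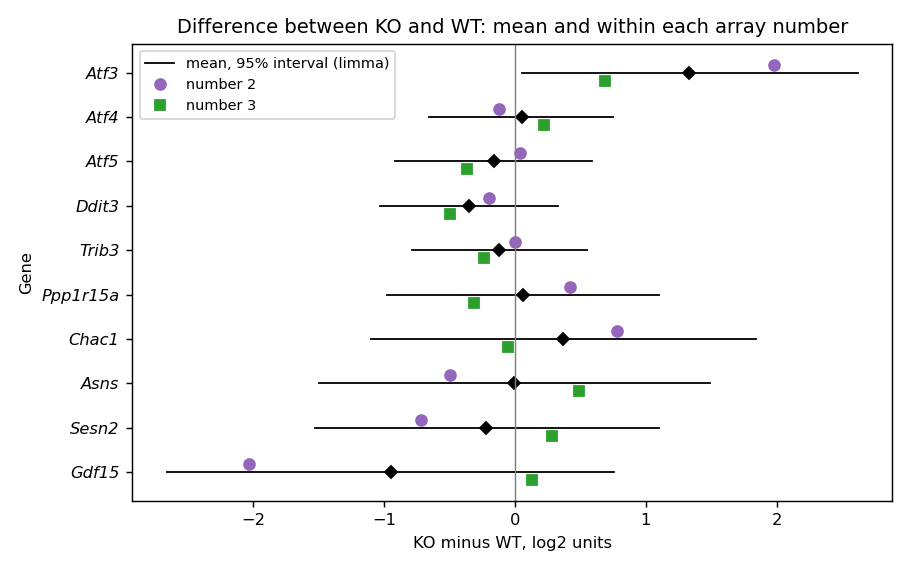
Difference between KO and WT in log2 units (horizontal axis) for the 10 genes (vertical axis). Diamonds and lines are the mean difference and its 95% interval from the limma fit, purple circles are number 2 and green squares number 3, each 1 KO array minus 1 WT array. Atf3 lies at 1.33, with 1.98 and 0.69 within the numbers, and every other interval includes 0.

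Counted over the set, Atf3 was 1 of 10 genes with both KO arrays above both WT arrays, beside 13.3% of all 15062 tested genes, and Ddit3 was 1 of 10 with both below, beside 8.9%. Atf3 alone exceeded a fold change of 2, which 1.14% of all genes did in the direction of KO. This rests on KO 2, since without that array the Atf3 difference was 0.79, under a fold change of 2. Of the 9 genes other than Atf3, 0 had both KO arrays above both WT arrays, and 3 had a mean difference above 0 (Atf4, Ppp1r15a and Chac1). The count of 0 depends on the arrays kept. With 1 array left out, 1 array stands against 2, which is a looser criterion than that behind the 13.3%. The share of all genes that meet it was not computed, so no such count is compared here. The median difference of the 9 genes was -0.12, beside 0.04 for all tested genes. For 7 of these 9 the sign at number 2 was opposite to that at number 3, beside 55.8% of all genes. The mean of the 9 genes was 1.08 and 1.06 on WT 2 and WT 3, and 0.82 and 1.02 on KO 2 and KO 3, so it was no higher on the KO arrays.

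These intervals, which are not adjusted for the number of probes, show how precisely each difference was estimated. They are not limits of detection, since no difference of any size was called, that of Atf3 included. A rise of Atf4 as large as the 1.33 of Atf3 lies outside its interval, as it does for Atf5, Ddit3, Trib3, Ppp1r15a, Sesn2 and Gdf15, while the intervals of Chac1 (to 1.84) and Asns (to 1.49) include it. The upper bounds of Atf4 (0.75), Atf5 (0.59), Ddit3 (0.33), Trib3 (0.55, bright probe) and Gdf15 (0.76) are lower still. On the dim Trib3 probe the upper bound was 0.96. A rise up to these bounds lies inside the intervals that 2 arrays a group gave.

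The wider pathway was then described by lists of genes. Of 45 further ATF4 and CHOP targets (amino acid synthesis and transport, tRNA charging, and stress factors), 42 were tested. Slc7a11 and Fgf21 were too dim on the arrays and Nars1 was not matched. None of the 42 was called, 8 (19%) had both KO arrays above both WT arrays and 0 had both below, beside 13.3% and 8.9% of all genes. Their median difference was 0.07, with 0.03 at number 2 and 0.20 at number 3, and single genes ranged from -0.80 to 0.66. The difference was above 0 for 29 of the 42 (69%), beside 55.1% of all genes. The highest differences among those with both KO arrays above were those of Eif4ebp1, an inhibitor of cap-dependent translation, at 0.41 (0.60 at number 2 and 0.22 at number 3) and Ddit4, an inhibitor of mTORC1, at 0.34 (0.47 and 0.20). The remaining 6 were Psph, which completes serine synthesis, the tRNA synthetase genes Aars, Sars, Iars and Mars1, and the autophagy gene Atg12. No gene of the list reached a fold change of 2. The list mean was 1.40 and 1.48 on WT 2 and WT 3, and 1.26 and 1.61 on KO 2 and KO 3, so that the KO arrays lay on either side of the WT arrays.

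Upstream, 18 genes of the eIF2 kinases, eIF2 and eIF2B subunits and their regulators had a median difference of 0.08, with 3 genes (16.7%) above and 3 below in both KO arrays, beside 13.3% and 8.9% of all genes. Among them were Eif2s2 at 0.28 and Eif2s1 at 0.22, subunits of eIF2, and Eif2ak4, the amino acid sensing kinase GCN2, at -0.37. Eif2b3, a subunit of the exchange factor that phosphorylated eIF2 inhibits, was at -0.48. Its probe was dim, with a mean of -4.63 in WT and -5.11 in KO. The RNA of the kinases does not report their activity, which is set by phosphorylation.

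The other branches of the unfolded protein response gave 24 tested ATF6 and XBP1 targets with a median of -0.09. Of these, 1 (4.17%), Derl2 at 0.10, had both KO arrays above and 0 had both below. The shares of all genes were 13.3% and 8.9%. The 10 mitochondrial chaperones and proteases had a median of 0.39, with 0.82 at number 2 and -0.07 at number 3. Among them 1 (10%), Yme1l1 at 0.08, had both KO arrays above and 0 had both below, beside the same 13.3% and 8.9%. At number 2 the median difference was also positive for the heart muscle markers, at 1.07, and for the endothelial markers, at 0.55. A link between these lists was not tested.

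**Figure D3:**
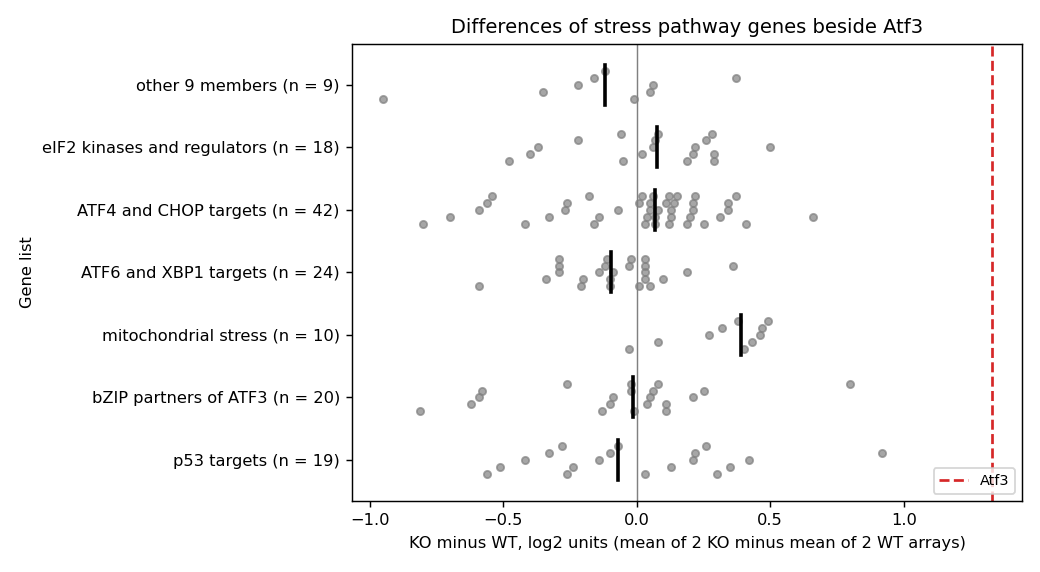
Mean difference between 2 KO and 2 WT arrays in log2 units (horizontal axis) for each tested gene of the stress pathway lists (grey points, 1 row per list), with the median of each list as a black bar. The dashed line marks Atf3 at 1.33. List medians lie between -0.12 and 0.39, and no gene of any list lies beyond Atf3.

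Because ATF3 binds DNA in pairs with other bZIP proteins, 20 partner and related genes were listed. Their median difference was -0.02, with 2 genes (10%) above and 2 below in both KO arrays, beside 13.3% and 8.9% of all genes. Fos, an immediate early gene, was 1 of those above, at 0.80 or 1.74-fold (standard error 0.44, adjusted p 0.9999). It read 0.10 and -0.59 on WT 2 and WT 3, and 0.95 and 0.15 on KO 2 and KO 3, and its differences of 0.86 and 0.75 were alike within both numbers. Fosb was also above, at 0.25, on a dim probe (mean -4.18 in WT and -3.93 in KO). Batf3, the neighbour of Atf3 on the chromosome, was below at -0.81, with -1.60 at number 2 and -0.02 at number 3, and Mafg, at -0.13, was the other gene below.

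Of 19 p53 targets, 3 (15.8%) had both KO arrays above and 0 both below, beside 13.3% and 8.9% of all genes, and the median difference was -0.07. Gadd45a, a growth arrest gene, was at 0.42 (0.55 and 0.29 within the numbers), Plk2, a stress-induced kinase, was at 0.35 (0.19 and 0.51), and the last was Mdm2.

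Atf3 was also compared with the genes around it, on the chromosome that also carries the targeted gene Kdm5b. The Kdm5b probes start at 136485365 and 136528957 and that of Atf3 at 192994547, so the window used here does not reach Kdm5b. Within 1000 kb of the Atf3 probe on mm9, 17 other genes were tested, of which 12 had a difference above 0 and 5 below, beside 55.1% above 0 among all tested genes, with a median of 0.09 and a range from -0.94 (Vash2) to 0.96 (Nek2). Both KO arrays were above both WT arrays for 4, namely Nsl1 at 0.82, Dtl at 0.95, Nek2 at 0.96 and Rcor3 at 0.09, beside 13.3% of all genes. The nearest tested gene, Batf3, at 62 kb, differed by -0.81. Nsl1, a kinetochore protein, Dtl, a ubiquitin ligase adaptor of S phase, and Nek2, a centrosome kinase, differed by 1.15, 1.26 and 1.10 at number 3 and by 0.49, 0.65 and 0.83 at number 2, whereas the difference of Atf3 was larger at number 2. No gene of the region was called.

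**Figure D4:**
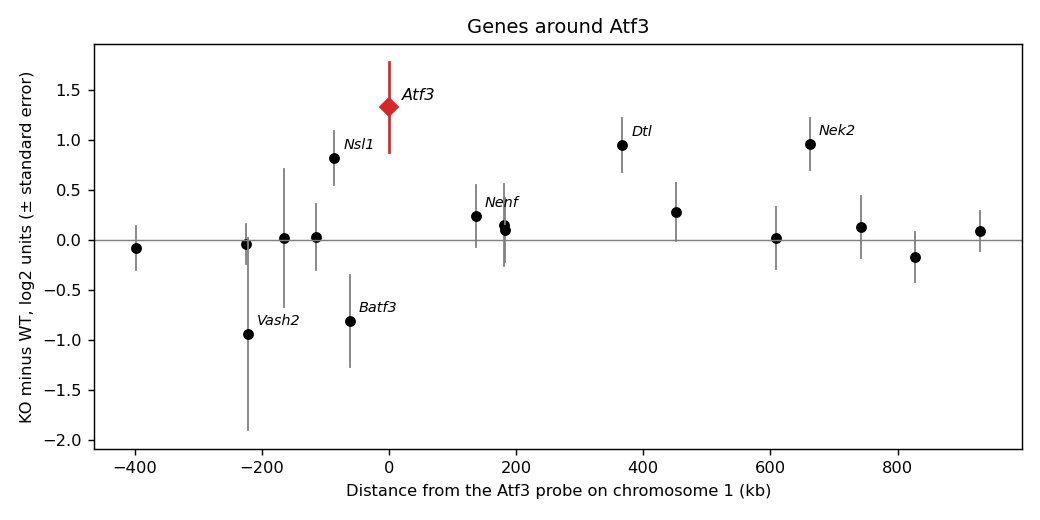
Difference between KO and WT in log2 units with its standard error (vertical axis) against the distance from the Atf3 probe in kb (horizontal axis) for Atf3 (red diamond) and the 17 tested genes within 1000 kb (black points). Atf3 lies at 1.33 and its nearest tested neighbour, Batf3, at -0.81.

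The genes whose pattern over the 4 arrays was most like that of Atf3 were found by the root mean square distance after removal of each gene's mean, over 14381 genes well above background on all arrays. The nearest were Insm2 (0.109), Unc79 (0.124), Zc3h3 (0.129), Tcf23 (0.151) and Olfr1093 (0.161), all on dim probes. Their levels lay between the 39.2 and 45.8 percentile of all 41168 probes with a value on every array. That number includes the probes too dim to be tested. Among the 7773 genes whose mean over the 4 arrays was above 0 on this scale, that is above the 75th percentile signal, a restriction chosen after these values were seen, the nearest were Cbr2 (0.245), Ube2s (0.287), Metrn (0.304), Depp1 (0.317) and Mrps5 (0.328). Of the stress response genes, Chac1 was the closest to Atf3 at 0.53, with 751 genes nearer, followed by Ppp1r15a at 0.653 with 3287 nearer. Gdf15 was the farthest at 1.46, with 13728 nearer. With 4 points, such likeness is a description of these arrays.

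Markers of the cell types of the heart also differed between the arrays. In whole ventricle, fewer cells of a type and less RNA per cell cannot be told apart. On KO 2, where Atf3 was highest and Gdf15 lowest, the mean of the 15 heart muscle markers was the highest of the 4 arrays (7.59), while the means of the fibroblast (4.44, 10 genes), macrophage (1.99, 8 genes) and neutrophil markers (-2.86, 6 genes) were the lowest. In the same order of lists, the other arrays ranged from 4.62 to 6.54, from 5.27 to 5.41, from 3.14 to 3.84 and from -0.33 to 0.27. The endothelial mean (7 genes) was 1.59 and 1.71 in WT and 2.17 and 1.41 in KO. At number 3 all 15 heart muscle markers were lower in KO (median -0.71) and 7 of 8 macrophage markers were higher (median 0.24). Of the fibroblast markers, 5 of 10 were higher (median 0, with list means of 5.41 on WT 3 and 5.33 on KO 3). The Atf3 difference at number 3 was 0.69, from 1 array per genotype. With the mean of the heart muscle markers as a covariate, which leaves 1 residual degree of freedom, the Atf3 difference was 1.29 (adjusted p 0.3304). The part of any cell type, heart muscle included, in the Atf3 and Gdf15 values was not tested.

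**Figure D5:**
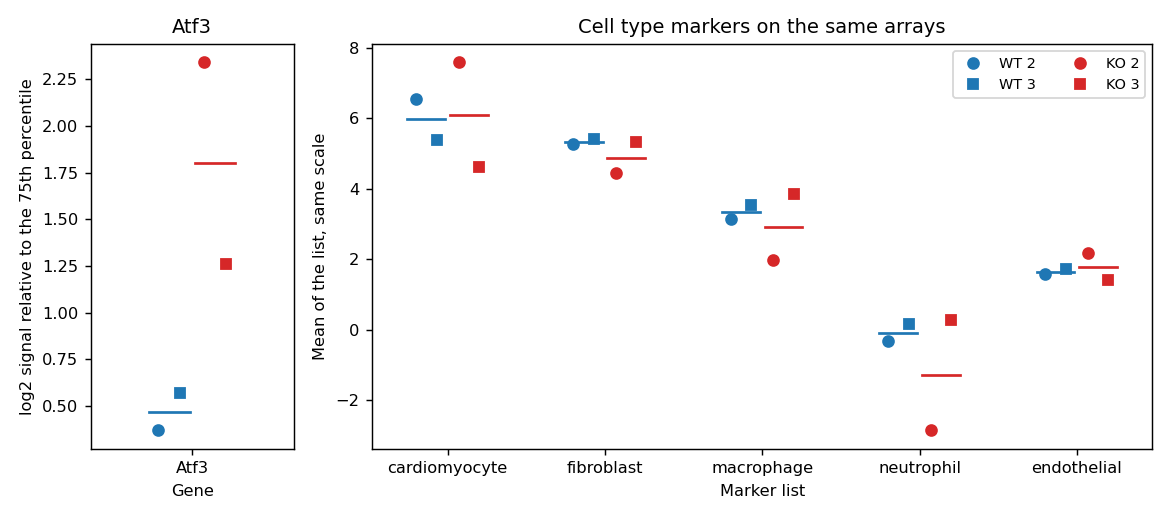
Signal of Atf3 (left) and mean signal of the marker lists of 5 cell types (right) on each array, as log2 relative to the 75th percentile. Blue is WT, red is KO, circles are number 2, squares are number 3 and bars are means of 2 arrays. The muscle markers are highest on KO 2 (7.59) and lowest on KO 3 (4.62). For Atf3, both KO arrays lie above both WT arrays.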

How the data were processed

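Left ventricular RNA was measured on 4 one-colour Agilent Whole Mouse Genome arrays. The authors deposited intensity values from Agilent Feature Extraction (10.7.3.1 per the file headers, probes placed on mm9), background-subtracted and detrended by that software. They also deposited a table of log2 values, made per the methods with GeneSpring, whose normalization is not stated. Between 99.9% and 99.96% of its values were within 0.01 of log2 processed signals after quantile normalization, with a median of 6.78 on each array.

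Groups and numbers came from the sample titles. Each array held 45018 spots, none of the non-control ones saturated. Outlier spots, 92 to 116 per array, were left out, and well above background were 68.15% to 72.05% of probes. The 75th percentile of processed signal came to 876.3 and 976.1 on WT 2 and WT 3, and 607.6 and 885.2 on KO 2 and KO 3. The number of arrays limits the precision. The log2 processed signal was shifted by this percentile. Tests covered the 28305 probes well above background on both WT or both KO arrays. The KO and WT groups were compared in R 4.3.3 with lmFit and eBayes of limma 3.58.1, adjusting p over these probes after Benjamini and Hochberg. The fit was tested on simulated data. A gene's value is that of its brightest tested probe.

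Of the probes, 31437 had a current symbol of the RefSeq table (GRCm38.p6), 2200 an older one and 91 a matching accession, and 7446 had none. Promoters came from RefSeq on GRCm38.p6, with 12 entries for the 10 genes, while probe coordinates were kept on mm9 as in the files. Whether a probe lies in a coding exon or a UTR was not determined.

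The genes and lists were chosen with earlier results of these data known. Beside the 10 genes and Kdm5b, the rule named from each pathway list the 2 highest and 2 lowest differences among genes whose groups do not overlap, and the 5 genes nearest to Atf3. Genes named beyond it (the other ATF4 and CHOP targets, Mdm2, the neighbours of Atf3 and the nearest bright genes) were chosen after their values were seen. Alternatives were other scalings, background corrections, filters and tests, the deposited log2 table, a block for the array number, fits without each array in turn, and a muscle marker covariate. Slide and scan day could not be fitted as blocks, with 1 of each.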

Additional observations from a re-analysis of the deposited data

How the results depend on the processing

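No probe and no stress response gene was called under any alternative. With all 4 arrays, the Atf3 difference ran from 1.25 (normexp) to 1.36 (shift by the median), and its limma adjusted p from 0.3304 to 0.9999. Leaving out 1 array gave 0.79 (without KO 2) to 1.88 (without KO 3, adjusted p 0.132), always above 0, where a lone array is taken to vary as the other group does. The array numbers mark no shared litter or batch in the labels, but the transcripts of the sex chromosomes divided the arrays by number. Deviations of same-numbered arrays correlated at 0.57 over probes, and with the number as a replicate block the Atf3 difference was 1.33 (adjusted p 0.9949), with 602 against 410 probes at an unadjusted p under 0.05. That number was 1162 with normexp, 4249 with the muscle marker covariate, 879 by the methods' t-test and 0 after its adjustment.

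Of 99 differences of the 9 genes other than Atf3 over the alternatives with 4 arrays, 95 kept their sign. Asns became 0.02 with the median shift and 0.05 with the covariate, Atf4 became -0.02 with normexp, and Trib3 became 0.03 with the mean of its probes, which put the median of the 9 genes at -0.01. With 1 array left out, 8 of 36 turned sign. That median then ran from -0.28 to 0.04 and the ATF4 target median from -0.03 to 0.24. The number of the 9 genes with KO above WT also changed. In these fits 1 array stands against 2, and the share of all genes was not computed. Over these fits Atf4 ran from -0.15 to 0.24, Atf5 from -0.39 to 0.07, Ddit3 from -0.52 to -0.18, Trib3 from -0.28 to 0.04, Ppp1r15a from -0.36 to 0.47, Chac1 from -0.25 to 0.99, Asns from -0.65 to 0.64, Sesn2 from -0.78 to 0.35 and Gdf15 from -1.57 to -0.33.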
